A study of Mus musculus with 24 samples.

Results

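Kit, Ly6a, Cd34, Cd48, Slamf1, Cd27 and Ptprc encode the surface antigens by which mouse LSKs are gated or divided into subsets. LSKs are bone marrow cells that lack lineage antigens and carry Sca-1 and c-Kit, a population of hematopoietic stem cells and multipotent progenitors. The 7 genes were taken by symbol from a table of read counts for 24091 genes, and each of the 7 was among the 13520 genes that passed the filter on low counts and were tested. Sorted LSKs of 24 mice on the B6 background were profiled by bulk RNA-seq, with 1 library a mouse, and each of the 4 groups held 3 female and 3 male mice. WT mice were miR-142+/+ and miR-142 KO mice were miR-142-/-, both without BCR-ABL. CP CML mice were miR-142+/+ and carried SCLtTA/BCR-ABL, and BC CML mice carried the same transgenes on miR-142-/-. In both CML groups BCR-ABL was driven by the SCL promoter, which is active in stem and progenitor cells, and was switched on by withdrawing tetracycline for 2 weeks. The ages of these mice are not given in the sources used here. CP and BC are the group names of the paper. It places the first circulating blasts of miR-142-/- BCR-ABL mice at 3 to 4 weeks of induction, later than these samples. The comparisons asked what the loss of miR-142 changed in normal and in leukemic LSKs, and what BCR-ABL changed with and without miR-142.

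c-Kit, the product of Kit, is the receptor tyrosine kinase for stem cell factor, and Sca-1, the product of Ly6a, is a lipid-anchored protein of the Ly6 family whose gene responds to interferon. CD150 (Slamf1) and CD48 (Cd48) are receptors of the SLAM family. Among LSKs, the long-term stem cells carry CD150 and lack CD48, whereas most multipotent progenitors carry CD48. CD34 is a sialomucin that marks the more cycling fraction of LSKs, CD27 is a receptor of the TNF receptor family that binds CD70, and CD45 (Ptprc) is the pan-leukocyte tyrosine phosphatase that acts on Src family kinases. The cells were sorted on Sca-1 and c-Kit protein, so that the levels of Ly6a and Kit below are transcript levels in cells that had already passed a gate on the corresponding proteins. In these bulk samples, fewer cells with a transcript and less transcript per cell cannot be told apart.

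Total counts ranged from 16267965 to 24687077 per library. The targeted gene was checked first. Mir142 had 94 to 127 counts in the WT and 68 to 153 counts in the CP CML libraries. All 6 BC CML and all 6 miR-142 KO libraries had 0 counts of it, so that the counts went with the labels. Where 0 was counted, a true level of up to 3 counts per library is within counting error, the only error that this floor covers. Pairs of libraries within a group differed by at least 6.07 times the counting noise (chi-square per degree of freedom), and none was counted as a duplicate.

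The sequences that differ between the groups with and without miR-142 are the products of Mir142, on chromosome 11 of mm10. The mature forms are shown with the seed (bases 2 to 8) in capitals, as listed by RefSeq for GRCm38.p6, because each pairs with its own short sites in 3′ UTRs.
mmu-miR-142a-5p, chr11:87756867-87756887, plus strand: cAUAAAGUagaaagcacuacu
mmu-miR-142a-3p, chr11:87756903-87756925, plus strand: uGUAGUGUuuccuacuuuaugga
The longest annotated 3′ UTR of each member was searched for the DNA complement of both seeds, ACTTTAT for the 5p form and ACACTAC for the 3p form, on the transcribed strand, and for the variant that pairs with bases 2 to 7 and is followed by an A. The 5p letters were present in 3 of the 7 members, Cd34 and Slamf1 among them, and in 4 of 7 when the variant was included, which added Ly6a. Of 12609 tested genes with a 3′ UTR, 15.9% held the 5p letters and 23.4% held either form. The 3p letters or their variant were in 0 of the 7 members, against 12% of these genes. Windows of these members are given below with the matching bases in capitals, since they let the changes of these transcripts with miR-142 be read beside their letters.
Kit, chr5:75655450-75655479, plus strand, variant: gctaagcacaatCTTTATAagacctcttag
Cd34, chr1:194959903-194959932, plus strand: cagataatgctACTTTATttctatactgtc
Cd34, chr1:194960494-194960523, plus strand: cttcttcccctACTTTATggaaaccaaggt
Slamf1, chr1:171800010-171800039, plus strand: tggctctctggACTTTATtctggaagctga
Ly6a, chr15:74995111-74995140, minus strand, variant: accatgttttgcCTTTATAgcccctgctgg
These windows are from mm10, and a match is a description of letters and not of binding. Of the 4 members that hold a match, Ly6a rose and Slamf1 fell where miR-142 was lost, as described next, Kit fell with its loss in leukemic LSKs, and Cd34 did not pass the test in either of these comparisons.

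Levels between genes were compared as CPM per kilobase, where CPM is the TMM-scaled count divided by library size and the gene length is the one in the table. Averaged over the 24 libraries, Cd34 was the highest of the 7 at 406 CPM per kilobase and ranked 50 among the 13520 tested genes. Kit (163), Cd48 (142), Cd27 (82.1), Ly6a (74.2) and Ptprc (70.3 CPM per kilobase) followed, between rank 212 and rank 849. Slamf1 was the exception, at 1.61 CPM per kilobase, below the median of all tested genes (10.02) and at their 20.6 percentile. Its counts were 50 to 225 per library, so that single Slamf1 values carry more counting error than those of the other members.

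**Figure D1:**
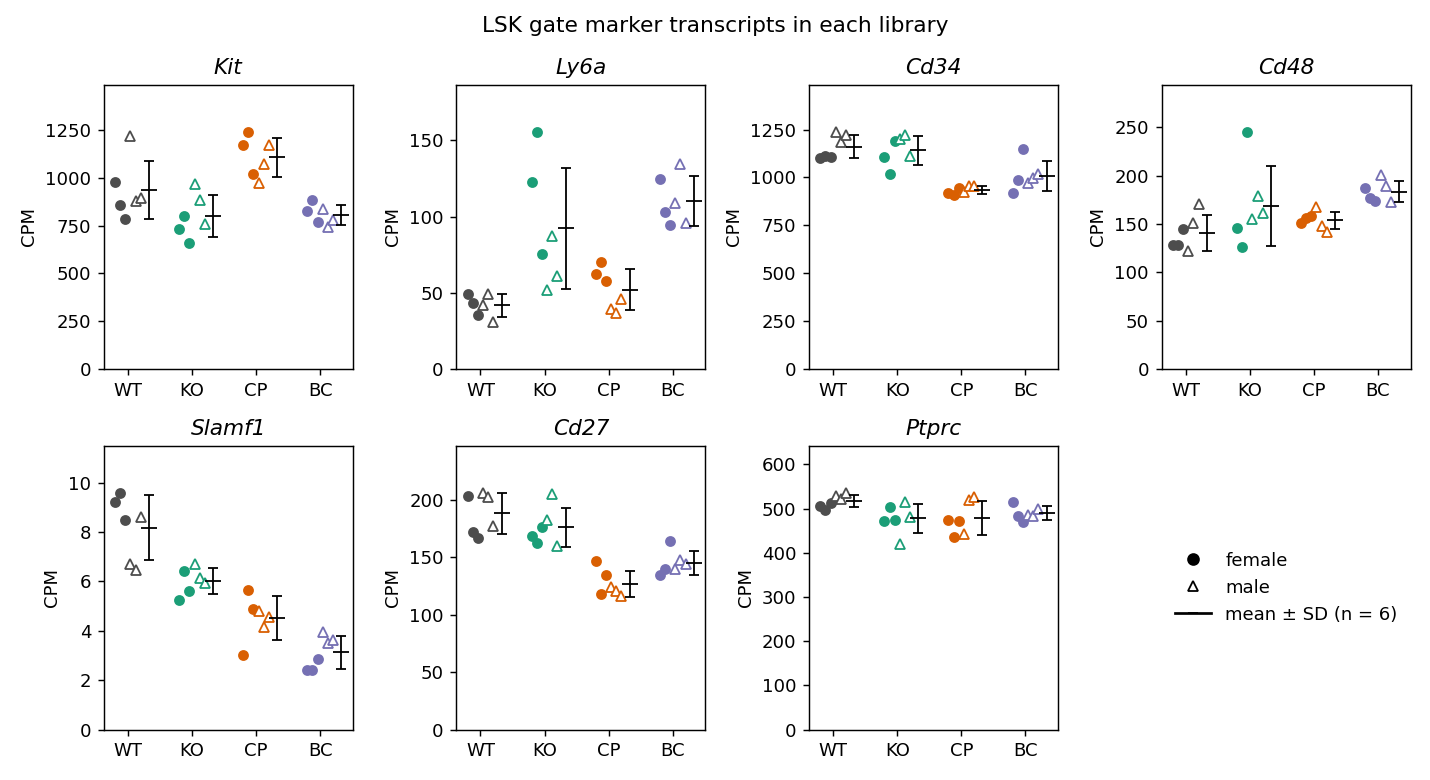
Level of each of the 7 transcripts in CPM (library-size-scaled counts after TMM, linear axis from 0) in every library, with filled circles for females, open triangles for males and the mean ± SD of 6 mice beside each group. Ly6a was high in KO and BC, Slamf1 stepped down from WT to BC, Kit was highest in CP, Cd34 and Cd27 were lower in CP than in WT, and Ptprc stayed between 421 and 535 CPM in all 24 libraries.

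Between BC CML and CP CML LSKs, which differ in miR-142, Ly6a rose, whereas Kit and Slamf1 fell. Cd27 was also past the threshold on the higher side, a call that was lost when any of 10 of the 12 libraries was left out. In CPM, Ly6a went from 51.9 ± 13.4 to 110 ± 16.2 (SD, n = 6 each), a rise of 2.13-fold, and Kit went from 1109 ± 103 to 807 ± 51.4 (SD, n = 6 each). By edgeR's quasi-likelihood test with Benjamini-Hochberg adjustment over all tested genes, 4 of the 7 members passed an adjusted p of 0.05, 2 higher and 2 lower. The background was high, since 38% of the tested genes passed, 20.4% higher and 17.6% lower. Of these calls 53.7% were higher, and 42.4% with upper quartile normalization. The 6 values of one group did not overlap those of the other for 3 of the 7 members (Kit, Ly6a and Cd48), against 20.7% of the tested genes. The median absolute log2 change was 0.25 over the 7 members and 0.19 over the tested genes.

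Between miR-142 KO and WT LSKs, the same contrast without BCR-ABL, Ly6a rose 2.21-fold, from 41.7 ± 7.43 to 92.3 ± 39.7 CPM (SD, n = 6 each). Slamf1 fell by 26.4%, from 8.18 ± 1.30 to 6.01 ± 0.53 CPM (SD, n = 6 each). These 2 of the 7 members passed the test, 1 higher and 1 lower, against 36.3% of the tested genes (19.9% higher and 16.4% lower). The share of all calls that were higher was 54.7%, and 42% with upper quartile normalization. Ly6a alone had no overlap between the groups, which was the case for 14.5% of the tested genes. Kit, Cd48 and Ptprc passed at an unadjusted p of 0.05 and not after adjustment. By DESeq2, and by edgeR with upper quartile normalization, 4 members passed, with Kit and Ptprc added on the lower side.

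Between CP CML and WT LSKs, which differ in BCR-ABL, Slamf1, Cd27 and Cd34 fell and Kit rose. Slamf1 fell by 44.6% to 4.52 ± 0.88 CPM, Cd27 fell by 32.7% from 188 ± 17.7 to 127 ± 11.6 CPM, and Cd34 fell by 19.5% from 1161 ± 61.5 to 934 ± 20.4 CPM (SD, n = 6 each). In all, 4 of the 7 members passed, 1 higher and 3 lower, against 45.4% of the tested genes (22.5% higher and 22.9% lower). The values of the groups did not overlap for Cd34, Slamf1 and Cd27, which makes 3 of 7, against 21.8% of the tested genes.

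Between BC CML and miR-142 KO LSKs, which differ in BCR-ABL in the absence of miR-142, the same 3 genes were lower. Slamf1 fell by 47.9% to 3.13 ± 0.66 CPM, Cd27 fell by 17.6% to 145 ± 10.6 CPM and Cd34 fell by 11.8% to 1007 ± 77.4 CPM (SD, n = 6 each). These 3 of the 7 members passed, 0 higher and 3 lower, against 39.6% of the tested genes (20.3% higher and 19.3% lower). Slamf1 alone had no overlap between the groups, against 10.6% of the tested genes. The comparisons that share a group of mice are not independent of each other.

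**Figure D2:**
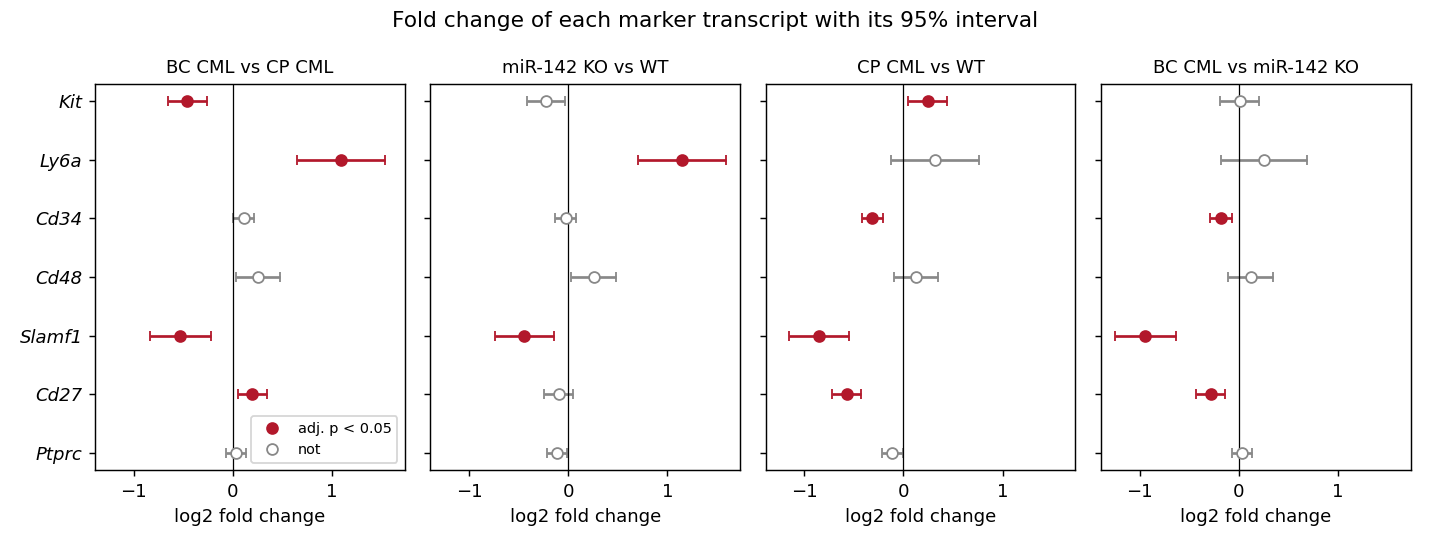
Log2 fold change of each of the 7 transcripts (points) with its 95% interval (bars) in 4 comparisons, from 1 quasi-likelihood fit over 24 libraries, with filled red points for an adjusted p under 0.05. Slamf1 lay to the left of 0 in all 4 panels, and Ly6a lay near 1 in both panels that compare mice without and with miR-142.

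The difference between the miR-142 effects in leukemic and normal LSKs was tested as an interaction. By edgeR's quasi-likelihood test 0 of the 7 members passed, against 3.99% of the tested genes, and Cd27 and Ptprc had an unadjusted p under 0.05. The likelihood ratio test and DESeq2 also gave 0. For Ly6a the effects were 1.09 and 1.15 on the log2 scale, and their difference was -0.06 with a 95% interval of -0.68 to 0.56. For Slamf1 the difference was -0.09 (-0.51 to 0.34) and for Cd27, the lowest adjusted p of the 7 (0.103), it was 0.29 (0.08 to 0.50).

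Each group held both sexes in equal number. With group as a covariate, 0 of the 7 members differed between females and males by the quasi-likelihood test, against 0.69% of 13629 tested genes, and 0 by the likelihood ratio test and DESeq2. Ly6a had an unadjusted p under 0.05 and was 0.36 ± 0.13 (SE) higher in females on the log2 scale (adjusted p = 0.185 by the same test). In CP CML the 3 females had 57.5 to 69.9 CPM and the 3 males 36.6 to 45.8 CPM of Ly6a. The sexes overlapped in BC CML (94.3 to 125 CPM in females and 96.0 to 135 CPM in males). They also overlapped in WT (35.7 to 49.2 and 30.8 to 49.5 CPM) and in miR-142 KO (75.4 to 155 and 51.5 to 87.6 CPM). Whether the sex difference varied between groups was not tested.

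Of the antigens that define the gate, Ly6a maps to the minus strand of chromosome 15 in mm10, between 74994877 and 74998031. Its lowest, median and highest levels in CPM were 30.8, 42.4 and 49.5 in WT, 51.5, 81.5 and 155 in miR-142 KO LSKs, 36.6, 51.6 and 69.9 in CP CML, and 94.3, 106 and 135 in BC CML. Every miR-142 KO library was above every WT library, and every BC CML library was above every CP CML library. The order of the means was BC CML, miR-142 KO, CP CML and WT, and each neighbouring pair overlapped. The log2 change was 1.09 ± 0.21 (SE) in BC CML over CP CML (adjusted p = 0.00033) and 1.15 ± 0.21 in miR-142 KO over WT (adjusted p = 0.0002), by the quasi-likelihood test. BCR-ABL gave 0.32 (95% interval -0.13 to 0.76) in CP CML over WT and 0.26 (-0.18 to 0.69) in BC CML over miR-142 KO, neither past the test.

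The spread of Ly6a was widest in miR-142 KO, with a coefficient of variation of 43% against 14.7% to 25.8% in the other groups. The miR-142 KO libraries 1 and 2, both from females, had the highest Ly6a of their group (123 and 155 CPM) and also its highest sums over 20 interferon response genes (1379 and 1578 CPM), while the other 4 had 51.5 to 87.6 CPM of Ly6a and sums of 434 to 1091 CPM. Without these 2 libraries, a choice made after seeing the data, Ly6a was 0.73 higher in miR-142 KO than in WT on the log2 scale (adjusted p = 0.0026, with 1.4e-06 to 0.0039 over all alternatives) and 0.67 higher in BC CML than in miR-142 KO (adjusted p = 0.0078, with up to 0.42 over all alternatives), by the quasi-likelihood test. In BC CML, the library with the highest interferon sum (989 CPM, replicate 3) had the lowest Ly6a of its group.

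The interferon list was set beside Ly6a in each comparison. Of its 20 genes, 1 rose (Bst2, the antiviral protein tetherin) and 1 fell (Ifit2) in BC CML against CP CML, and in miR-142 KO against WT 1 rose (Bst2) and 0 fell. The median log2 change of the list was 0.29 and 0.07 in these comparisons, in both of which Ly6a rose. In CP CML against WT, 19 of the 20 fell, with a median log2 change of -1.25 against -0.02 over the tested genes, whereas Ly6a did not pass the test. Isg15, a ubiquitin-like protein, fell by 1.80 and Oas2, an RNA sensor, fell by 1.87 on the log2 scale there. The count that fell in BC CML against miR-142 KO was 13, which ranged from 5 to 19 when single libraries were left out and from 1 to 15 under the other alternatives. Over all tested genes, 38% passed in BC CML against CP CML and 36.3% in miR-142 KO against WT. On the lower side, 22.9% passed in CP CML against WT and 19.3% in BC CML against miR-142 KO. The part of interferon in the Ly6a levels was not tested.

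**Figure D3:**
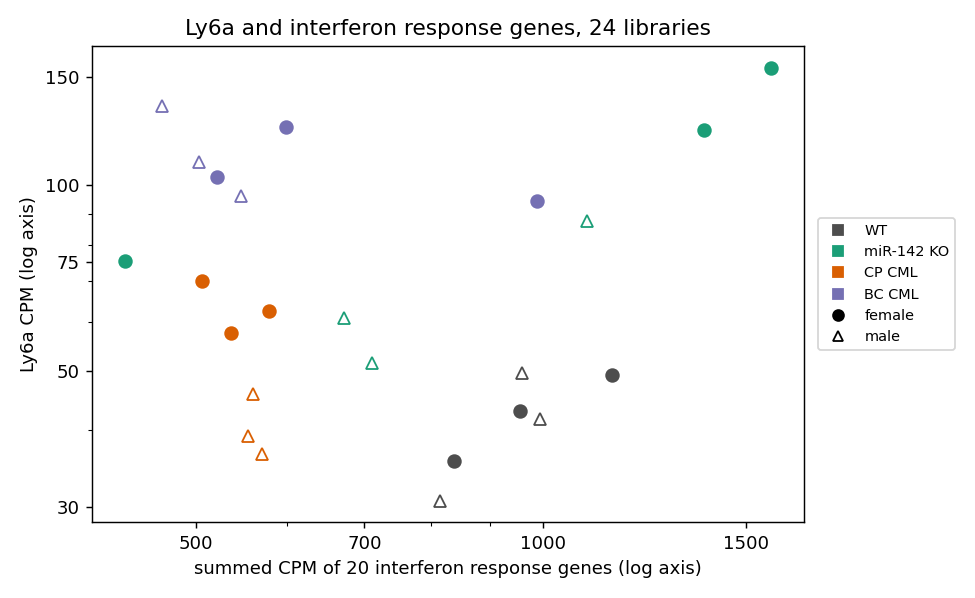
Ly6a in CPM against the summed CPM of 20 interferon response genes in each of 24 libraries, both on log axes, with colour for the group and symbol for the sex. BC CML libraries combined high Ly6a with sums of 468 to 989 CPM, WT libraries combined low Ly6a with sums of 814 to 1147 CPM, and miR-142 KO libraries 1 and 2 stood at the top right.

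Ly6 genes other than Ly6a were few in these cells, since 13 of 15 listed genes were in the table and 7 were tested. Of these, 2 rose and 1 fell in BC CML against CP CML, and 3 rose and 2 fell in miR-142 KO against WT. In CP CML against WT 1 rose and 1 fell, and in BC CML against miR-142 KO 1 fell. The matching shares of all tested genes that passed were 38%, 36.3%, 45.4% and 39.6%, in that order. Ly6e, an interferon-responsive gene of the family, rose by 0.59 in BC CML over CP CML and by 0.85 in miR-142 KO over WT on the log2 scale, from means of 766 and 690 CPM. Ly6c1, another gene of the family, rose from 0.33 ± 0.08 to 3.11 ± 3.18 CPM and from 0.19 ± 0.11 to 1.48 ± 0.78 CPM (SD, n = 6 each) in the same comparisons. Ly6d, an antigen of lymphoid progenitors, fell by 2.44 and 1.36 on the log2 scale. Its levels were low, at 1.83 to 9.46 CPM in CP CML and 0.52 to 1.14 CPM in BC CML. In WT they were 2.63 to 10.5 CPM, and in miR-142 KO 0.22 to 4.38 CPM. Ly6a shares sequence with its neighbours in this family, and how reads that fit several copies were counted is not given in the sources used here.

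Kit maps to the plus strand of chromosome 5, between 75574987 and 75656721. Its lowest, median and highest levels in CPM were 784, 888 and 1220 in WT, 662, 779 and 972 in miR-142 KO LSKs, 974, 1123 and 1240 in CP CML, and 746, 803 and 884 in BC CML. All CP CML libraries were above all BC CML and all miR-142 KO libraries, while WT overlapped every other group. Kit fell by 0.46 ± 0.09 (SE) on the log2 scale in BC CML against CP CML (adjusted p = 0.00055) and rose by 0.24 ± 0.09 in CP CML against WT (adjusted p = 0.038), by the quasi-likelihood test. The second call was lost when any of 7 of the 12 libraries was left out (WT replicates 2, 3, 5 and 6 and CP CML replicates 1, 2 and 6), with adjusted p between 0.0031 and 0.076, and also with upper quartile normalization (adjusted p = 0.085) or no filter on low counts (adjusted p = 0.054). The miR-142 KO against WT change was -0.22 (95% interval -0.42 to -0.03, adjusted p = 0.066), and it passed when WT replicate 3 or miR-142 KO replicate 4 was left out. BC CML and miR-142 KO differed by 0.01 (-0.18 to 0.21).

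Mast cells and basophil progenitors also carry c-Kit or CD34. Their 7 markers summed to 82.5 to 571 CPM in WT, 226 to 2619 in miR-142 KO LSKs, 1839 to 3737 in CP CML and 5425 to 11740 CPM in BC CML, with no marker at 0 in any group. Of the 7, 5 rose in BC CML against CP CML while Kit fell, and in CP CML against WT 5 rose and Kit rose as well. On the higher side, 20.4% and 22.5% of all tested genes passed in these comparisons. The part of such cells in the Kit and Cd34 levels was not tested.

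Of 20 genes of KIT signalling and of the regulators that act on Kit, 4 rose and 5 fell in BC CML against CP CML. In miR-142 KO against WT 7 rose and 4 fell, in CP CML against WT 6 rose and 4 fell, and in BC CML against miR-142 KO 4 rose and 1 fell. The shares of all tested genes that passed were 38%, 36.3%, 45.4% and 39.6% in these 4 comparisons, in that order. Sh2b3, the adaptor LNK that restrains cytokine receptors, rose by 0.38 in leukemic and 0.35 in normal LSKs without miR-142 on the log2 scale. Sos1, an exchange factor for RAS, rose by 0.39 and 0.29. Pik3r1, the regulatory subunit of PI 3-kinase, fell by 0.23 and 0.24. Lmo2, a bridging protein of the SCL complex, rose by 0.21 in BC CML over CP CML, and the difference between its miR-142 effects passed the test (adjusted p = 0.0069 by the quasi-likelihood test). Its log2 change of -0.16 in miR-142 KO against WT lost its call in 5 of 12 fits that left out 1 library and in 2 of 9 other alternatives.

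Within single libraries, the log2 difference between Ly6a and Kit was -4.49 ± 0.30 in WT, -4.45 ± 0.31 in CP CML, -3.21 ± 0.69 in miR-142 KO and -2.88 ± 0.24 in BC CML (SD, n = 6 each). The 6 BC CML values (-3.10 to -2.47) lay above all 12 WT and CP CML values (-4.87 to -4.15), and the miR-142 KO values spanned -4.24 to -2.36. This difference is free of the scaling between libraries, and it is given as a description with no test.

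Cd48 and Slamf1, the antigens that divide LSKs into stem cells and progenitors, are neighbours on chromosome 1, at 171682055 to 171705257 and 171767132 to 171801184 on the plus strand, with a gap of 61.9 kb. Slamf1 had a lowest, median and highest level in CPM of 6.45, 8.54 and 9.58 in WT, 5.26, 6.04 and 6.71 in miR-142 KO LSKs, 3.03, 4.69 and 5.66 in CP CML, and 2.40, 3.18 and 3.94 in BC CML. The groups stood in that order, with each pair of neighbours overlapping and with WT and miR-142 KO each free of overlap with BC CML. Slamf1 was the only one of the 7 members to pass the test in all 4 comparisons, each time on the lower side.

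The log2 change of Slamf1 was -0.53 ± 0.15 (SE) in BC CML against CP CML (adjusted p = 0.0068), -0.44 ± 0.14 in miR-142 KO against WT (adjusted p = 0.018), -0.85 ± 0.15 in CP CML against WT (adjusted p = 7.4e-05) and -0.94 ± 0.15 in BC CML against miR-142 KO (adjusted p = 5.1e-05), by the quasi-likelihood test. The miR-142 KO against WT call was lost without WT replicate 2 (-0.39, adjusted p = 0.052) and without miR-142 KO replicates 1 and 2 together (-0.42, adjusted p = 0.06, the highest over all alternatives). In BC CML the 3 females had 2.40 to 2.88 CPM and the 3 males 3.49 to 3.94 CPM. In WT the females had 8.47 to 9.58 CPM and the males 6.45 to 8.62 CPM. The ranges were 5.26 to 6.41 and 5.92 to 6.71 CPM in miR-142 KO, and 3.03 to 5.66 and 4.15 to 4.82 CPM in CP CML. The sex effect common to the groups was -0.07 (adjusted p = 0.77 by the quasi-likelihood test), and its variation between groups was not tested.

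Cd48 had a lowest, median and highest level in CPM of 122, 137 and 171 in WT, 126, 158 and 245 in miR-142 KO LSKs, 141, 153 and 168 in CP CML, and 172, 182 and 200 in BC CML. All BC CML libraries were above all WT and all CP CML libraries, and the miR-142 KO group overlapped each of the others. The log2 change was 0.25 (95% interval 0.03 to 0.48, adjusted p = 0.07) in BC CML against CP CML and 0.26 (0.03 to 0.48, adjusted p = 0.067) in miR-142 KO against WT, by the quasi-likelihood test, so that neither passed. The first passed when only the 12 libraries compared were fitted (adjusted p = 0.0011, with 0.0011 to 0.12 over all alternatives). The highest miR-142 KO value was that of replicate 3. Without that library, the change against WT was 0.13 (adjusted p = 0.24) and the change in BC CML against miR-142 KO was 0.25 (adjusted p = 0.017), by the same test. Without WT replicate 6, miR-142 KO replicate 1 or miR-142 KO replicate 2, the miR-142 KO against WT change passed.

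Set against each other within a library, Cd48 exceeded Slamf1 by 4.10 ± 0.31 on the log2 CPM scale in WT, 4.76 ± 0.39 in miR-142 KO LSKs, 5.08 ± 0.28 in CP CML and 5.86 ± 0.28 in BC CML (SD, n = 6 each). The BC CML values (5.53 to 6.23) were above all WT values (3.73 to 4.53) and all miR-142 KO values (4.28 to 5.42), and overlapped the CP CML range (4.77 to 5.60) only at CP CML replicate 1. That library had the lowest total count of the 24 and the lowest Slamf1 count, 50.

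**Figure D4:**
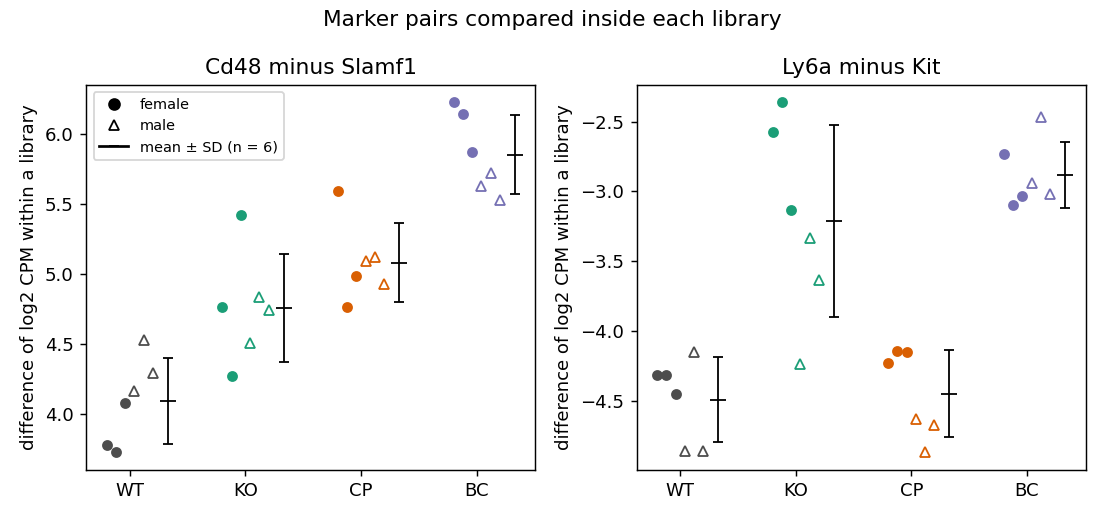
Difference of log2 CPM between 2 transcripts within each library, Cd48 minus Slamf1 on the left and Ly6a minus Kit on the right, with filled circles for females, open triangles for males and the mean ± SD of 6 mice. The left panel rises from 4.10 in WT to 5.86 in BC CML, and in the right panel BC CML lies above WT and CP CML with miR-142 KO spread between.

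Of the other SLAM receptors and their adaptors, 11 of 12 listed names were in the table and 8 were tested. Of the 8, 6 fell and 0 rose in BC CML against CP CML, with a median log2 change of -1.26, and in miR-142 KO against WT 3 fell and 0 rose, with a median of -1.01. In CP CML against WT 2 rose and 1 fell, and in BC CML against miR-142 KO 1 rose and 2 fell. The shares of all tested genes that passed were 38%, 36.3%, 45.4% and 39.6%, in that order. On the lower side, 17.6% passed in BC CML against CP CML and 16.4% in miR-142 KO against WT. The median log2 changes of all tested genes were 0.014 and 0.005 there. Ly9, the receptor CD229, had means of 68.5 CPM in WT and 55.8 in CP CML, and of 27.7 in miR-142 KO and 29.8 in BC CML, and fell by 0.91 in leukemic and by 1.30 in normal LSKs without miR-142 on the log2 scale. Slamf6, a receptor of lymphocytes, fell by 2.02 and 1.98. Its levels were low, at 2.85 to 7.62 CPM in CP CML and 0.61 to 1.97 CPM in BC CML. In WT they were 1.93 to 7.57 CPM, and in miR-142 KO 0.49 to 1.81 CPM. Slamf9 and Sh2d1b1, a receptor of myeloid cells and the adaptor EAT-2, fell from 2.48 and 5.67 CPM in CP CML to 0.40 and 1.84 CPM in BC CML. Most of these genes are also used by mature lymphoid or myeloid cells, whose marker sums are given with Cd27 below.

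Of 19 further antigens that divide LSKs into subsets or lineages, 6 rose and 4 fell in BC CML against CP CML, and 9 rose and 5 fell in miR-142 KO against WT. In CP CML against WT 6 rose and 8 fell, and in BC CML against miR-142 KO 2 rose and 5 fell. Over all tested genes, 38%, 36.3%, 45.4% and 39.6% passed in these 4 comparisons, in that order. Flt3, the receptor of lymphoid-primed progenitors, had lowest, median and highest levels in CPM of 758, 817 and 1030 in WT, 214, 396 and 415 in miR-142 KO LSKs, 574, 686 and 813 in CP CML, and 225, 282 and 380 in BC CML. Every library without miR-142 was below every library with it, and Flt3 fell by 1.23 in leukemic and by 1.24 in normal LSKs on the log2 scale. Procr, the stem cell antigen EPCR, fell by 1.15 and by 1.79.

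Cd9, a tetraspanin, rose with the loss of miR-142, by 0.89 in leukemic and by 0.77 in normal LSKs on the log2 scale. Fcgr2b, an inhibitory Fc receptor, rose in each of the 4 comparisons, from a mean of 25.3 CPM in WT to 115 CPM in BC CML. Itgb3, the integrin chain CD61, rose by 1.74 in miR-142 KO over WT, and its log2 change of 0.49 in BC CML over CP CML did not pass (adjusted p = 0.055). The miR-142 effects on Fcgr2b and Itgb3 were smaller in leukemic than in normal LSKs (adjusted p = 0.019 and 0.013 for the difference), by the quasi-likelihood test.

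Cd34 maps to the plus strand of chromosome 1, between 194938821 and 194961292. Its lowest, median and highest levels in CPM were 1101, 1150 and 1236 in WT, 1020, 1150 and 1221 in miR-142 KO LSKs, 909, 935 and 957 in CP CML, and 917, 993 and 1148 in BC CML. All CP CML libraries were below all WT and all miR-142 KO libraries, and BC CML overlapped each of the other groups. The log2 change was -0.31 ± 0.05 (SE) in CP CML against WT (adjusted p = 6e-05) and -0.18 ± 0.05 in BC CML against miR-142 KO (adjusted p = 0.0089), by the quasi-likelihood test. The loss of miR-142 gave 0.11 (95% interval 0.00 to 0.22, adjusted p = 0.11) in leukemic and -0.02 (-0.13 to 0.08) in normal LSKs. Exons of Cd34 share 148 bases with Gm16897 on the opposite strand, a gene with 7 to 36 counts per library, against 15126 to 29746 for Cd34.

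Endothelial cells carry CD34 and Sca-1 as well. Their 6 markers summed to 34.4 to 60.5 CPM in WT, 11.8 to 23.3 in miR-142 KO LSKs, 28.2 to 40.6 in CP CML and 12.8 to 23.3 CPM in BC CML, with none at 0. These sums were lower in the groups in which Ly6a was higher. The part of endothelial cells in the Cd34 and Ly6a levels was not tested. The 6 stromal markers summed to at most 78.3 CPM in any library.

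Cd27 maps to the minus strand of chromosome 6, between 125232622 and 125237027. Its lowest, median and highest levels in CPM were 167, 190 and 206 in WT, 160, 173 and 205 in miR-142 KO LSKs, 116, 122 and 146 in CP CML, and 134, 142 and 164 in BC CML. Every WT and every miR-142 KO library was above every CP CML library, and every WT library was above every BC CML library. The log2 change was -0.57 ± 0.07 (SE) in CP CML against WT (adjusted p = 1.9e-06) and -0.28 ± 0.07 in BC CML against miR-142 KO (adjusted p = 0.0035), by the quasi-likelihood test. For BC CML against CP CML it was 0.19 ± 0.07 (adjusted p = 0.034), a call that was lost when any of 10 of the 12 libraries was left out, all but CP CML replicate 1 and BC CML replicate 1, with log2 changes of 0.13 to 0.22 and adjusted p of 0.017 to 0.14, and that was also lost with upper quartile normalization, the 1 CPM filter or sex as a covariate (adjusted p up to 0.13). In miR-142 KO against WT it was -0.10 (95% interval -0.24 to 0.05). Exons of Cd27 share 129 bases, 5.54% of its exonic bases, with Mir8113 on the same strand. Mir8113 had 0 to 3 counts per library, against 2413 to 4995 for Cd27.

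Lymphocytes carry CD27, CD48 and CD45 as well. The 9 markers of B and plasma cells summed to 69.1 to 958 CPM in WT, 27.1 to 41.8 in miR-142 KO LSKs, 165 to 747 in CP CML and 28.0 to 39.5 CPM in BC CML. The 8 markers of T and NK cells summed to 56.5 to 99.2 CPM in WT, 116 to 130 in miR-142 KO LSKs, 69.6 to 88.6 in CP CML and 79.7 to 121 CPM in BC CML. No marker of either list was at 0 in any group, and the B cell sums were low wherever miR-142 was absent. Their part in the Cd27, Cd48, Slamf1 and SLAM family levels was not tested.

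Of 11 listed antigens of the lineage panel, 10 were found in the table and 6 were tested. All 10 together summed to 65.5 to 147 CPM per library. Of the 6, 2 fell in BC CML against CP CML, in miR-142 KO against WT 1 rose and 3 fell, in CP CML against WT 2 fell, and in BC CML against miR-142 KO 3 fell. For comparison, 38%, 36.3%, 45.4% and 39.6% of all tested genes passed there, in that order. Cd4, the co-receptor of helper T cells, fell by 1.09 in leukemic LSKs and fell by 1.31 in normal LSKs on the log2 scale with the loss of miR-142. Itgam, the myeloid antigen CD11b, was the most abundant among the named genes of this list, at means of 73.1 to 92.2 CPM.

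Ptprc maps to the minus strand of chromosome 1, between 138062859 and 138175305. Its lowest, median and highest levels in CPM were 497, 517 and 535 in WT, 421, 478 and 515 in miR-142 KO LSKs, 437, 473 and 527 in CP CML, and 470, 485 and 514 in BC CML. All 4 groups overlapped, and no comparison passed the test. The log2 change was 0.03 (95% interval -0.07 to 0.13) in BC CML against CP CML and 0.03 (-0.07 to 0.14) in BC CML against miR-142 KO. It was -0.11 (-0.22 to -0.01, adjusted p = 0.077) in miR-142 KO against WT and -0.11 (-0.21 to -0.01, adjusted p = 0.072) in CP CML against WT, by the quasi-likelihood test, and the latter passed when CP CML replicate 5 or 6 was left out. These counts do not separate the isoforms of CD45.

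Of 17 partners of CD27, CD45 and CD34, 16 were tested, and Cd70, the ligand of CD27, had 0 counts in all 24 libraries. There were 3 that rose and 4 that fell in BC CML against CP CML, and 3 and 4 in miR-142 KO against WT. In CP CML against WT 4 rose and 3 fell, and in BC CML against miR-142 KO 3 rose and 3 fell. Among all tested genes 38%, 36.3%, 45.4% and 39.6% passed in these 4 comparisons, in that order. Lck, a Src family kinase on which CD45 acts, had means of 42.9 CPM in WT and 22.7 in CP CML. In miR-142 KO and BC CML its means were 16.1 and 10.9 CPM. It fell in each of the 4 comparisons. The BC CML against miR-142 KO call held in all 12 fits that left out 1 library and in 8 of 9 other alternatives. Siva1, a death domain protein that binds the tail of CD27, had means of 18.8 CPM in WT and 31.0 CPM in BC CML. It rose in BC CML against CP CML, in miR-142 KO against WT and in CP CML against WT. In BC CML against miR-142 KO, the log2 change of Siva1 was 0.23 to 0.35 with single libraries left out. Its call there changed in 4 of 12 such fits. Selp, the adhesion molecule P-selectin, rose by 1.93 in miR-142 KO over WT and by 0.93 in BC CML over CP CML on the log2 scale. Csk, the kinase that opposes CD45, fell by 0.14 in BC CML against CP CML.

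For each member, the 3 genes of the 11756 candidates with the smallest root mean square difference of centred log2 CPM over 24 libraries were taken as the most alike in pattern. For Slamf1 these were Odf3b (0.29), Nqo1 (0.29) and Tgfbr3 (0.30), against a root mean square of 0.56 for Slamf1 itself. For Ly6a they were Cd200r1 (0.30), Ahcyl2 (0.32) and Mocos (0.33), against 0.67. For Kit they were Zbtb38 (0.13), Plcg1 (0.14) and Jade2 (0.15), against 0.25. No candidate came within 0.28 of Slamf1 or Ly6a on this scale. For Cd27 the closest were Exd2 (0.11), Plcb2 (0.11) and Nfya (0.11), against 0.25, for Cd48 Ncbp1 (0.11), Atp1b3 (0.11) and Cse1l (0.12), against 0.23, for Cd34 Tmem106c (0.07), Zmym4 (0.07) and Wdr6 (0.08), against 0.15, and for Ptprc Mkln1 (0.06), Rsrc2 (0.08) and Pik3ca (0.08), against 0.09. The likeness of Ptprc to its neighbours is close to the size of its own variation and so describes little.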

How the data were processed

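Per the labels and the study's methods, LSKs were sorted from bone marrow and mRNA libraries were sequenced as paired reads. The authors trimmed reads with Trimmomatic and FASTP, aligned them to mm10 with STAR 2.6.0 and counted them with HTSeq 0.11.1, and they deposited raw counts per gene without normalization, together with gene positions and lengths. The annotation, the strand setting and the handling of reads that fit several genes are not given in the sources used here, so reads from overlapping genes on opposite strands cannot be told apart. The study's methods give n = 5 per group, and the 6 libraries per group of the table were all used.

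Groups came from the labels, 24 columns were each matched to 1 mouse, and replicates were numbered in accession order, which pairs no samples. Genes were filtered with filterByExpr and tested in edgeR 4.0.16 (R 4.3.3) with TMM normalization, 1 quasi-likelihood fit over 24 libraries, and Benjamini-Hochberg adjustment over all tested genes at a threshold of 0.05. The sex effect was fitted with group as a covariate. CPM are counts over TMM effective library size. Totals of 16267965 to 24687077 counts per library set the counting precision. The p-values set a difference against the spread between libraries of different mice. 3′ UTRs and exons were read from GENCODE (mm10) and miRNAs from RefSeq. Figures were drawn with matplotlib 3.10.9. The steps were tested on simulated data.

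The 7 members and the gene lists were chosen with earlier results of these data known. The text names the 7 members and the targeted gene. Of each list outside the cell type markers it may name up to 4 genes by smallest p in BC CML against CP CML and up to 2 by smallest p in miR-142 KO against WT, and for each member the 3 genes most alike in pattern that averaged 1 CPM or more and had no predicted name. Cd70, Gm16897 and Mir8113, outside this rule, were named after their values were seen. Alternatives were the likelihood ratio test, DESeq2 1.42.0, RLE and upper quartile normalization, no filter, at least 1 CPM in 6 libraries, sex as a covariate, only the 12 libraries compared, a minimal log2 fold change of 1 in either direction, and each library left out in turn. Some genes and a sequence window that this rule covers are not reported here.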

Additional observations from a re-analysis of the deposited data

Results flagged for a closer look

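Among the 7 members no library stood far from the others of its group, and no difference between the miR-142 effects in leukemic and normal LSKs passed the test after adjustment. Among the other named genes, 10 of 152 scans of a gene in a group (members included) had 1 library far from the other 5 by Dixon's test, where chance gives about 1 in 20. In miR-142 KO, replicate 3 had the lowest Flt3 (214 CPM, with the next at 389), the highest Siva1 (33.6 CPM) and the highest Selp (303 CPM). In WT, replicate 3 had the highest Sh2d1b1 (3.72 CPM) and Cd4 (20.7 CPM), replicate 1 the highest Isg15 (11.5 CPM) and Oas2 (98.1 CPM), and replicate 6 the lowest Csk (236 CPM). In BC CML, replicate 3 had the highest Ifit2 (40.6 CPM) and Isg15 (8.42 CPM).

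The difference between the miR-142 effects in leukemic and normal LSKs passed the quasi-likelihood test for 4 of these genes, at 0.72 for Cd59a, -0.83 for Fcgr2b, -1.26 for Itgb3 and 0.37 for Lmo2 on the log2 scale. Cd59a, a complement inhibitor, was at 8.25 CPM in WT and 5.18 CPM in CP CML, and at 6.03 CPM in miR-142 KO and 6.26 CPM in BC CML, and its call was lost in 5 of 24 fits that left out 1 library.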

How the results depend on the processing

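The count of members past the test in miR-142 KO against WT went from 2 to 4 with DESeq2 and with upper quartile normalization, and to 1 without WT replicate 2. Asking for a log2 fold change of at least 1 in either direction left 1 member (Ly6a) in BC CML against CP CML, 1 (Ly6a) in miR-142 KO against WT, 0 in CP CML against WT and 0 in BC CML against miR-142 KO. The share of all tested genes past this limit was not taken, so these counts have no background beside them. With single libraries left out, the counts ranged from 3 to 4 in BC CML against CP CML, 1 to 3 in miR-142 KO against WT, 3 to 5 in CP CML against WT and 3 to 4 in BC CML against miR-142 KO, and stayed at 0 for the difference between the miR-142 effects and for sex. Of 378 values of single members under the other alternatives, 343 kept direction and side of the threshold, 17 no longer passed, 8 newly passed and 10 changed sign, none of them a called change. The sign changes were Ptprc in BC CML against CP CML (-0.0144) and in BC CML against miR-142 KO (-0.00073), Kit in BC CML against miR-142 KO (-0.027), and the Cd48 difference between the miR-142 effects (0.0022), all with upper quartile normalization, and Kit in BC CML against miR-142 KO with the 1 CPM filter (-0.00088) and with sex as a covariate (-0.0013).

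With single libraries left out, the log2 values that changed sign ranged from -0.0154 to 0.0457 for Ptprc in BC CML against CP CML, from -0.0402 to 0.0132 for Cd34 in miR-142 KO against WT, from -0.0505 to 0.0742 for Kit in BC CML against miR-142 KO, from -0.181 to 0.13 for Ly6a and -0.0982 to 0.107 for Cd48 in the difference between the miR-142 effects, and from -0.0413 to 0.0073 for Cd27 between the sexes. Without miR-142 KO replicates 1 and 2, an alternative chosen after seeing the data, Cd34 in miR-142 KO against WT was 0.0308, Kit and Cd48 in BC CML against miR-142 KO were -0.0365 and -0.0252, and the Ly6a difference between the miR-142 effects was 0.34 (adjusted p = 0.47 by the quasi-likelihood test). The cause of these changes was not tested.

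Upper quartile normalization moved the share of calls that were higher from 53.7% to 42.4% in BC CML against CP CML and from 54.7% to 42% in miR-142 KO against WT. For 31 named genes of the lists, 1222 of 1297 values kept direction and call, and 0 called changes reversed. No paired analysis was possible because the labels give the groups no shared replicate numbers. Depth limits Slamf1 most, at 50 to 225 counts a library.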

Other observations

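Genes of further blood cell types differed between the groups, and they are given as values without an account of their source. The 7 genes of neutrophil-primed progenitors all rose in miR-142 KO against WT, with a median log2 change of 2.05, and 3 of the 7 rose in BC CML against CP CML. Their sums were 1249 to 4861 CPM in WT, 2770 to 7579 in miR-142 KO LSKs, 4492 to 7657 in CP CML and 5840 to 8578 CPM in BC CML. Of 7 mature neutrophil genes, 4 rose in miR-142 KO against WT and 3 fell in BC CML against CP CML, at sums of at most 182 CPM in any library. Of 7 macrophage genes, 5 fell in miR-142 KO against WT and 0 passed in BC CML against CP CML (quasi-likelihood test), at sums of 11.2 to 993 CPM. Of 6 megakaryocyte genes, 5 rose in miR-142 KO against WT and 1 fell in BC CML against CP CML, at sums of 145 to 583 CPM. Of 5 tested erythroid genes, 1 fell with the loss of miR-142 in normal and 1 in leukemic LSKs, at sums of at most 40.0 CPM. Among all tested genes 36.3% passed in miR-142 KO against WT and 38% in BC CML against CP CML.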
